A study of Mus musculus with 7 samples.

Results

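The 10 genes described here encode transcription factors that drive or accompany the epithelial-mesenchymal transition (EMT): *Snai1*, *Snai2*, *Zeb1*, *Zeb2*, *Twist1*, *Twist2*, *Tcf4*, *Prrx1*, *Prrx2* and *Foxc2*. They were taken by symbol from tables of 23122 symbols that had a value in all 7 papillomas, and each of the 10 was found once in every table. 6 of them are named in the study, and the other 4 (*Twist2*, *Prrx2*, *Tcf4* and *Foxc2*) are relatives or partners of those. The papillomas came from C57Bl/6 mice treated with the carcinogen DMBA and the tumor promoter TPA on the skin. All mice carried the *tetO-Nanog* allele, inserted downstream of *Col1a1*, and all drank doxycycline (2 mg/ml) throughout the protocol. The 4 control (CTR) mice lacked the transactivator, while the 3 transgenic (TG) mice also carried *K5-rtTA*, in which the bovine keratin 5 promoter restricts induction to basal cells of stratified epithelia. Each library was made from the polyA+ RNA of a papilloma, which holds keratinocytes together with stroma, vessels and leukocytes. Mice of both genotypes were matched for age and were 8 to 10 weeks old when doxycycline began. Papillomas were taken when the protocol ended or when a mouse reached the humane endpoint. Which of these applied to each mouse is not given, so age and time on doxycycline at collection may differ.

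During EMT, epithelial cells give up their cell junctions and take on a migratory, mesenchymal state. The SNAIL and ZEB zinc finger proteins bind E-box sequences such as CACCTG and repress epithelial genes, with *Cdh1* (E-cadherin) the best known target, and the miR-200 family in turn represses *Zeb1* and *Zeb2*. TWIST proteins are basic helix-loop-helix (bHLH) factors that bind E-boxes as dimers with E proteins, one of which is the product of *Tcf4* (also called E2-2, and not the Wnt effector TCF7L2). PRRX homeobox proteins mark embryonic mesenchyme, and FOXC2 is a forkhead protein of mesenchyme and lymphatic vessels. Most of these genes are also expressed by ordinary fibroblasts, endothelial cells or leukocytes, whereas *Snai2* is also a gene of basal keratinocytes.

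The E-box was looked up in the promoters of the regulators and of epithelial genes that such factors are known for, since these few letters are where SNAIL and ZEB proteins meet their targets. The windows were the 250 bases before each RefSeq start (GRCm38.p6), read for CACCTG on either strand, which appears as CAGGTG when the site lies on the other strand. Among 32851 windows of all genes, 17.22% held CACCTG. Windows were at hand for 6 of the regulators (*Twist1*, *Twist2*, *Snai1*, *Zeb2*, *Prrx1* and *Prrx2*), and 1 of their 9 windows held it, that of *Snai1* at 126 bases before the start. In the list of epithelial targets and keepers, 13 genes had a window, and *Cdh1* had none. Of their 19 windows, 8 (42.11%) held it, from *Crb3*, *Epcam*, *Cldn7*, *Ocln*, *Cldn4*, *Elf3* and *Patj*. The 2 windows of *Crb3* overlap and hold the same sites. Since the list was drawn from genes that such factors are known for, its share is a description and not a test. In the mesenchymal effector list, 0 of 12 windows did. The shorter word CANNTG, which contains CACCTG, was in 66.22% of all windows, in 11.11% of the regulators' and in 57.89% of the epithelial ones. A match describes the letters in the window and is not evidence of binding. The windows below show the regulator with the word, a regulator without it, and 2 epithelial genes with it close to the start, with the word in capitals. They lie at chr2:167537945-167538194 (plus strand, *Snai1*), chr12:33957421-33957670 (plus strand, *Twist1*), chr17:87635729-87635978 (plus strand, *Epcam*) and chr5:134946935-134947184 (minus strand, *Cldn4*), each written 5′ to 3′.
Snai1: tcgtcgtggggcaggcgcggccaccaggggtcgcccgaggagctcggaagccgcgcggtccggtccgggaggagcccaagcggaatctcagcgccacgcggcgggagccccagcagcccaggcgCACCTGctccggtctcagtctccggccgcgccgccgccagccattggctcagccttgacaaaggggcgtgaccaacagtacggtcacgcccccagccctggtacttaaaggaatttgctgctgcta
Twist1: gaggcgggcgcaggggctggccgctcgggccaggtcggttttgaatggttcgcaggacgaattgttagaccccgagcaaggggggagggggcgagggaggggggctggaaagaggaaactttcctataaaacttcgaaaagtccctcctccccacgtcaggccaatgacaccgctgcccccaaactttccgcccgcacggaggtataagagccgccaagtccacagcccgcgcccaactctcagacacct
Epcam: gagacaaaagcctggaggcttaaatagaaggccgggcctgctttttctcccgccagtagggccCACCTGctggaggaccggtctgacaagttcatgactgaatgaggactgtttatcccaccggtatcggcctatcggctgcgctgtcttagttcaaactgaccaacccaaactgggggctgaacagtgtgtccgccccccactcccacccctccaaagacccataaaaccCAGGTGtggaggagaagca
Cldn4: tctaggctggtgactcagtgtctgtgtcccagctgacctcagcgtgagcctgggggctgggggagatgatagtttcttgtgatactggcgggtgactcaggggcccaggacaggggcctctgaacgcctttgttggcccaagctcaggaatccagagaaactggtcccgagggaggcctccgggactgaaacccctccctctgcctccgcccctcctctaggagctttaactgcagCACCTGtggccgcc
In *Epcam* the word stands 187 and 19 bases before the start, and in *Cldn4* 14 bases before it. The levels of *Epcam* and *Cldn4* are given with the epithelial genes at the end.

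The TG papilloma labelled replicate 3 (TG 3) stood apart from the other libraries, so the comparison of each regulator is given with and without it. Its median FPKM was 1.14, against 0.539 to 0.673 in the other 6 papillomas, and its correlations with them across genes were 0.903 to 0.937. The width of the confidence intervals in the files implied between 10074859 and 15710562 reads on genes per library. The transgene check held for all labels, as *Nanog* was between 36.9 and 66.9 FPKM in TG and between 2.70 and 12.7 FPKM in CTR papillomas. *Krt5* and *Krt14*, keratins of basal keratinocytes, were at least 942 and 4717 FPKM in every library, so the epithelium named by the tissue label was present. Markers of other cell types were much higher in TG 3. The summed FPKM of 10 fibroblast markers was 727 there and between 86.5 and 145 in the other 6 papillomas, that of 10 leukocyte markers 194 against 39.4 to 62.3, and that of 7 skeletal muscle markers 601 against 1.50 to 4.90. In bulk tissue, more cells of a type and more RNA per cell cannot be told apart.

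An FPKM value is scaled to the length of the transcript and to the size of the library, so levels may be compared between genes. *Snai2* had by far the highest mean over the 7 papillomas, 11.9 FPKM, and *Zeb2* the lowest, 0.428 FPKM. Between them came *Twist1* (3.30 FPKM), *Tcf4* (3.00), *Prrx1* (1.79), *Prrx2* (0.810), *Twist2* (0.752), *Foxc2* (0.685), *Zeb1* (0.657) and *Snai1* (0.633). In means without TG 3, *Tcf4* (2.67 FPKM) lay above *Twist1* (2.62), and *Prrx2* (0.483) lay below *Twist2* (0.672), *Foxc2* (0.551) and *Zeb1* (0.490). *Snai2* exceeded *Twist1*, and *Prrx1* exceeded *Prrx2*, in 7 of 7 papillomas. For these 2 steps of the order the mean log2 differences were 1.82 ± 0.59 and 0.73 ± 0.31 (SD, n = 7), each with the smallest p possible (2-sided exact permutation test flipping signs within papillomas, p = 0.0156, 0.0703 after adjustment for 9 neighbouring pairs). None of the 9 neighbours in the order differed at an adjusted p under 0.05. The 5 genes from *Prrx2* to *Snai1* could not be ranked at all, with adjusted p-values between 0.727 and 0.984 by the same exact test. Read support was thin for several members. The intervals implied between 3 and 33 reads per library for *Snai1*, 3 and 24 for *Twist2*, 4 and 37 for *Prrx2* and 2.29 and 52 for *Foxc2*. In all, 4 library intervals of members reached down to 0.

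**Figure D1:**
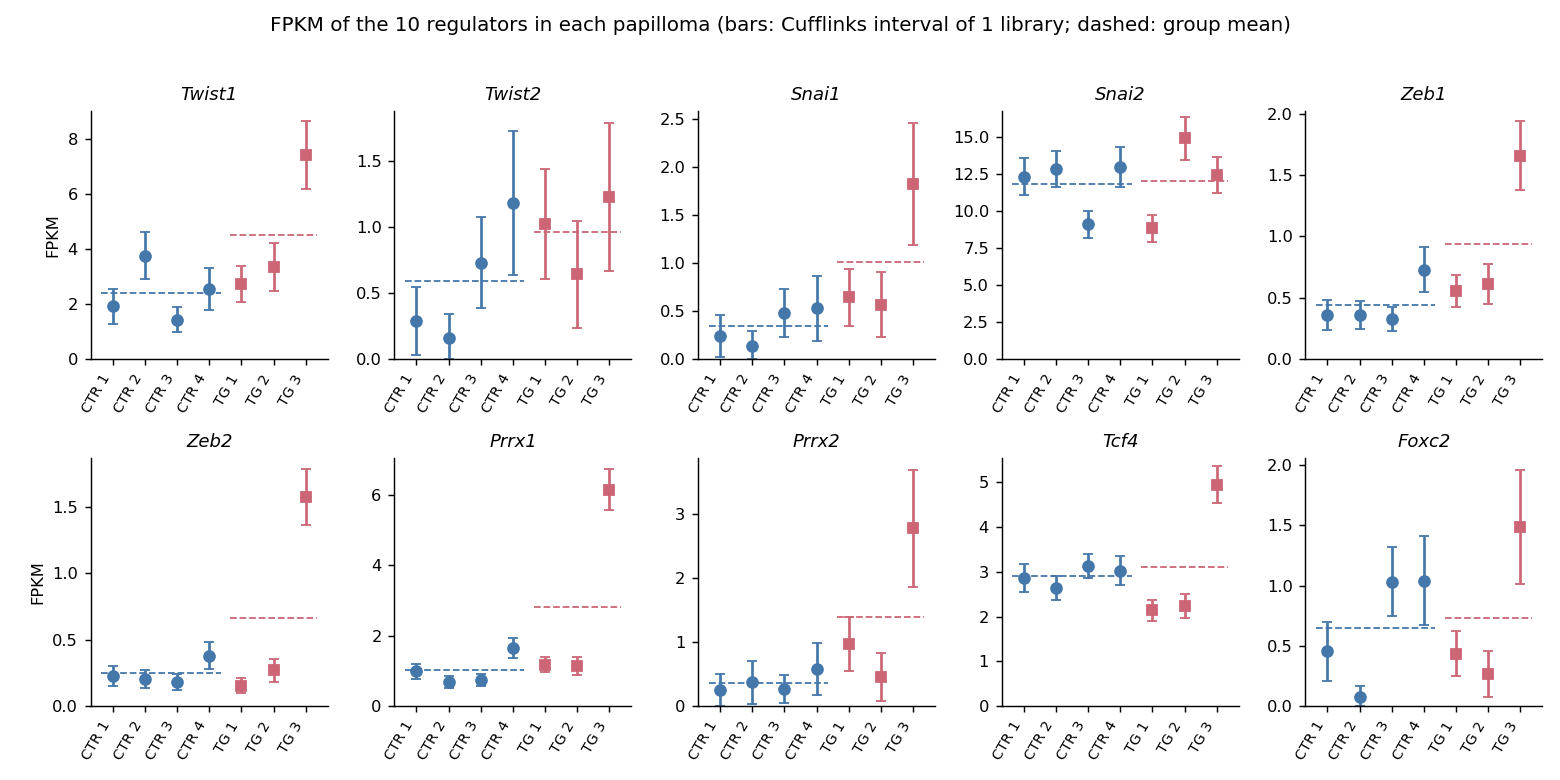
FPKM (y axis, linear, a scale of its own per gene) of the 10 regulators in each of the 4 CTR (blue circles) and 3 TG (red squares) papillomas, with the Cufflinks interval of each library as a bar and the group means as dashed lines. TG 3 is the highest point for 9 of the 10 genes, and *Snai2* is the exception.

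*Snai1* encodes SNAIL, a zinc finger repressor of E-cadherin, and lies on chromosome 2 from 167538227 to 167542811 (GRCm38, as all positions here). Its FPKM was 0.242, 0.137, 0.480 and 0.528 in CTR 1 to CTR 4, and 0.643, 0.570 and 1.83 in TG 1 to TG 3. Every TG papilloma lay above every CTR papilloma, but the gap between CTR 4 and TG 2 was narrow. The library interval of TG 1 overlapped those of CTR 1, CTR 3 and CTR 4, and that of TG 2 overlapped those of all controls. *Snai1* was the 1 regulator whose groups did not overlap in TG's favor, while 4.93% of all tested genes were separated in this way. The log2 difference was 0.77 (95% interval -0.01 to 1.55, adjusted p = 0.736 from limma, and p = 0.0286 by a 2-sided exact permutation test, the smallest possible). Without TG 3 it was 0.41, with TG still above CTR in 8 of 8 pairs (2-sided exact permutation test, p = 0.133).

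Its paralog *Snai2* encodes SLUG, which basal keratinocytes also make during wound closure, and lies on chromosome 16 from 14705859 to 14709382. It had 12.3, 12.8, 9.11 and 12.96 FPKM in CTR 1 to CTR 4, and 8.82, 14.9 and 12.4 FPKM in TG 1 to TG 3. The groups overlapped throughout, and the lowest and the highest of the 7 values were both in TG papillomas. *Snai2* was the 1 regulator in which TG 3 was not the highest library, at 1.05 times the mean of the other 6 papillomas. The log2 difference was 0.01 (95% interval -0.48 to 0.50 from limma), and its sign turned under upper-quartile scaling (-0.02), quantile normalization (-0.05) and without TG 3 (-0.03). The ratio of *Snai2* to *Snai1* FPKM fell between 6.80 (TG 3) and 93.4 (CTR 2), the latter from 3 implied *Snai1* reads.

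*Zeb1* and *Zeb2* encode zinc finger repressors with a homeodomain. *Zeb1*, on chromosome 18 from 5591860 to 5775468, had 0.359, 0.358, 0.327 and 0.729 FPKM in CTR 1 to CTR 4, and 0.556, 0.613 and 1.66 FPKM in TG 1 to TG 3. The control CTR 4 stood above TG 1 and TG 2, and TG 3 stood 3.38 times above the mean of the other 6 papillomas. The log2 difference was 0.55 (95% interval -0.17 to 1.27, adjusted p = 0.826 from limma), and 0.22 without TG 3. *Zeb2*, on chromosome 2 from 44983634 to 45113279, is also a gene of macrophages and other leukocytes. It had 0.228, 0.206, 0.183 and 0.379 FPKM in CTR 1 to CTR 4, and 0.155, 0.271 and 1.57 FPKM in TG 1 to TG 3. TG 1 was the lowest of the 7 libraries and TG 3 the highest, so the TG group spanned the whole CTR range. At a mean of 0.428 FPKM *Zeb2* was the 1 member below the minimum of the limma fit. TG 3 supplied 78.7% of the *Zeb2* FPKM added over the TG papillomas, the highest such share of the 10 genes, and without it the log2 difference went from 0.45 to -0.07 (2-sided exact permutation tests, p = 0.457 and p = 0.733). The ratio of *Zeb1* to *Zeb2* was between 1.58 and 3.59 in 6 papillomas and 1.05 in TG 3.

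*Twist1*, on chromosome 12 from 33957671 to 33959831, encodes a bHLH factor of mesoderm and neural crest. Its FPKM was 1.92, 3.76, 1.43 and 2.54 in CTR 1 to CTR 4, and 2.73, 3.35 and 7.40 in TG 1 to TG 3. CTR 2 exceeded TG 1 and TG 2, so the groups overlapped, and TG 3 was 1.97 times the next highest library. The means were 2.41 ± 1.00 FPKM (SD, n = 4) in CTR and 4.49 ± 2.54 FPKM (SD, n = 3) in TG papillomas. A log2 difference of 0.72 (95% interval -0.10 to 1.55, adjusted p = 0.799 from limma) became 0.34 without TG 3.

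*Twist2*, a bHLH gene of dermis and mesenchyme like its paralog, lies on chromosome 1 from 91801477 to 91848027 and had 0.289, 0.159, 0.732 and 1.18 FPKM in CTR 1 to CTR 4, and 1.03, 0.643 and 1.23 FPKM in TG 1 to TG 3. CTR 4 and TG 3 were nearly equal, and the spread among controls (0.591 ± 0.466 FPKM, SD, n = 4) was larger than the step between the group means (0.966 ± 0.297 FPKM, SD, n = 3, in TG). The log2 difference was 0.50 (95% interval -0.31 to 1.32, adjusted p = 0.842 from limma), and 0.37 without TG 3. *Twist2* shares 1477 exonic bases with *Gm29100* on the opposite strand, and 45.87% of its 40-base words, the read length used, also occur in transcripts of that gene. Whether counting used the strand of the reads is not given in the sources used here, so the 2 genes' reads may not be separated. The ratio of *Twist1* to *Twist2* was between 1.96 (CTR 3) and 23.6 (CTR 2), the latter from 3 implied *Twist2* reads.

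*Tcf4*, the E protein partner of TWIST, lies on chromosome 18 from 69344492 to 69687967. It had the most even levels of the 10 genes outside TG 3 (coefficient of variation 15.3% over 6 papillomas), with 2.87, 2.64, 3.12 and 3.02 FPKM in CTR 1 to CTR 4, and 2.14, 2.24 and 4.94 FPKM in TG 1 to TG 3. TG 1 and TG 2 both lay below all 4 controls, while TG 3 lay above them. These opposite positions left a log2 difference of 0.00 (95% interval -0.61 to 0.60, adjusted p = 0.999 from limma), whose sign turned with a pseudocount of 1. Without TG 3 the log2 difference was -0.34, the largest downward value among the members, with 0 of 8 pairs higher in TG (2-sided exact permutation test, p = 0.0667, the smallest that 15 splits allow, and adjusted p = 0.615 from limma). *Tcf4* was the 1 regulator whose groups were separated downward in these 6 papillomas, as were 8.97% of tested genes, and *Snai1* the 1 separated upward, as were 8.94%.

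*Prrx1* and *Prrx2*, homeobox genes of mesenchyme, had the widest gap between TG 3 and the rest on the log2 scale. *Prrx1*, on chromosome 1 from 163245119 to 163313650, had 0.986, 0.686, 0.750 and 1.65 FPKM in CTR 1 to CTR 4, and 1.18, 1.14 and 6.14 FPKM in TG 1 to TG 3. TG 1 and TG 2 lay inside the CTR range, below CTR 4. TG 3 was 5.76 times the mean of the other 6 papillomas, and a log2 difference of 0.84 (95% interval -0.27 to 1.94, adjusted p = 0.826 from limma) shrank to 0.17 without it. *Prrx2*, on chromosome 2 from 30845367 to 30881247, had 0.253, 0.373, 0.272 and 0.579 FPKM in CTR 1 to CTR 4, and 0.964, 0.457 and 2.77 FPKM in TG 1 to TG 3. Here TG 1 as well as TG 3 stood above every control, and TG 2 did not. The log2 difference of *Prrx2*, 0.95, was the largest of the 10 (95% interval 0.04 to 1.86, unadjusted p = 0.0425 and adjusted p = 0.720 from limma, exact permutation p = 0.0571), and 0.46 without TG 3. Its CTR mean was 0.369 ± 0.15 FPKM (SD, n = 4), from 4 to 8 implied reads per library.

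*Foxc2*, on chromosome 8 from 121116171 to 121118894, was the most variable of the 10 outside TG 3, with a coefficient of variation of 72.7% over the 6 papillomas. Its FPKM was 0.456, 0.0734, 1.03 and 1.04 in CTR 1 to CTR 4, and 0.437, 0.266 and 1.49 in TG 1 to TG 3. The values of TG 1 and TG 2 fell between CTR 2 and CTR 1, and TG 3 exceeded all. The log2 difference was 0.08 (95% interval -0.95 to 1.10, adjusted p = 0.992 from limma), with the opposite sign under quantile normalization (-0.10), with sample quality weights (-0.59) and without TG 3 (-0.33). Over the 6 papillomas without TG 3, the highest *Foxc2* value was 14.2 times the lowest, against 1.46 times for *Tcf4*. The lowest *Foxc2* value, in CTR 2, rested on 2.29 implied reads with an interval down to 0, so counting error is part of that range. *Tcf4* had at least 265 implied reads in every library.

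Set side by side, 0 of the 9 members tested passed an adjusted p of 0.05 in limma, where 0.0% of the 12299 tested genes passed. The induced *Nanog* itself, with a log2 difference of 3.45, had an adjusted p of 0.400 in this limma fit. Missing this threshold therefore does not show that a gene is unchanged. At an unadjusted p under 0.05, *Prrx2* was higher in TG, as were 4.86% of tested genes, and 0 members were lower, as were 1.96%. No regulator lay wholly below the controls in all 3 TG papillomas, a position held by 2.23% of tested genes. Across the 17 alternative settings the lowest adjusted p of any member was 0.252. TG had the higher mean on the log2 scale for 9 of the 10 members, and for 6 of 10 without TG 3. The median log2 difference of the 10 was 0.53, beside 0.06 for all tested genes, and without TG 3 it was 0.20 beside -0.03. The 6 members that the study names had a median of 0.64 and the other 4 a median of 0.29, which became 0.20 and 0.02 without TG 3. Of the 4 additional genes, *Prrx2* and *Twist2* stayed higher in TG without TG 3, whereas *Tcf4* and *Foxc2* took values below 0. 3 of the tested members (*Snai1*, *Zeb1* and *Prrx2*) had CTR means below 0.5 FPKM and reached the minimum for the test through TG papillomas, so no share of called members is read from them.

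**Figure D2:**
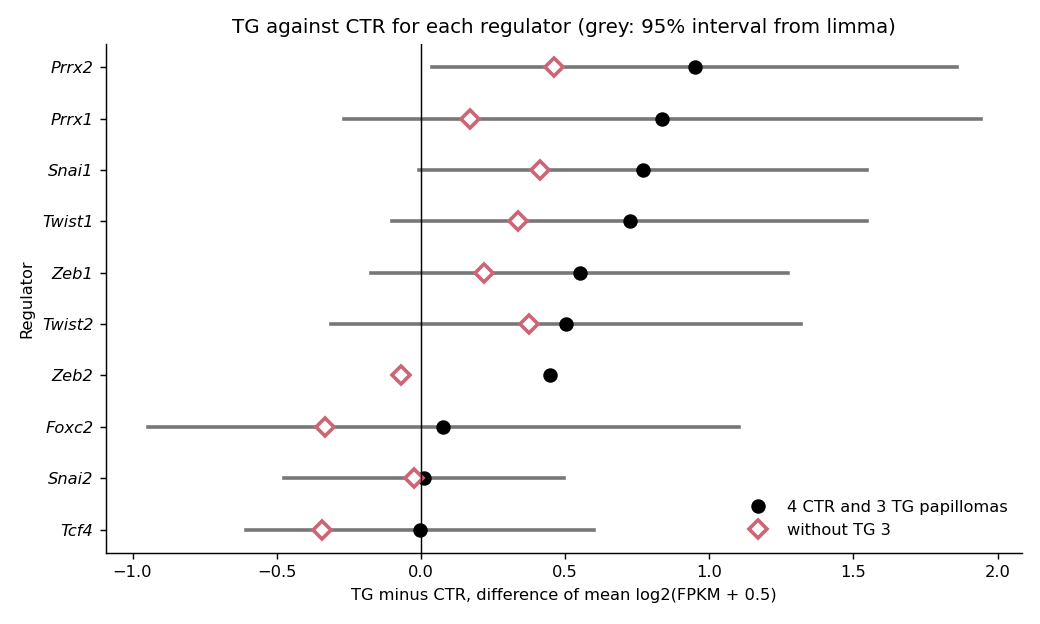
Difference between mean log2(FPKM + 0.5) in TG and CTR papillomas (x axis) for each regulator (y axis), with all papillomas as black points with the 95% interval from limma in grey and without TG 3 as open diamonds. The diamonds run from -0.34 (*Tcf4*) to 0.46 (*Prrx2*), and the *Zeb2* point has no interval because the gene was below the FPKM minimum.

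TG 3 had the highest of the 7 values for 9 of the 10 regulators, and 41.1% of tested genes were highest there. For 7 of them (*Twist1*, *Snai1*, *Zeb1*, *Zeb2*, *Prrx1*, *Prrx2* and *Tcf4*) the library interval of TG 3 lay above the intervals of all other papillomas, as it did for 20.1% of tested genes. The excess of TG 3 over the mean of the other 6 had a median of 1.24 on the log2 scale for the members and 0.25 for all tested genes. It was 2.11 for *Prrx1*, 1.77 for *Prrx2* and 1.50 for *Zeb2* at the upper end, and 0.09 for *Snai2* at the lower end. Markers of stromal and other non-epithelial cells moved with these values. The highest value was in TG 3 for 9 of 10 fibroblast markers, with *Col1a1*, *Col1a2* and *Col3a1*, the most abundant, averaging 32.6, 35.1 and 19.1 FPKM in CTR and 87.9, 91.7 and 62.7 FPKM in TG papillomas. *Pdgfra* and *Dpt*, both of fibroblasts, were also separated upward, as were 4.93% of tested genes, at 3.52 and 19.8 FPKM in TG 3. *Pdgfra* averaged 0.324 FPKM in CTR and reached the minimum for the test through TG 3. TG 3 was highest as well for 9 of 10 leukocyte, 5 of 7 endothelial, 5 of 5 mural, 7 of 7 skeletal muscle and 5 of 5 adipocyte markers. The most abundant leukocyte markers did not all follow: *Cd52* was separated upward (8.39 ± 2.62 FPKM in CTR, 17.6 ± 8.73 in TG, SD, n = 4 and 3, with a log2 difference of 0.98, and 0.61 without TG 3), while *Cd68* averaged 18.8 and 17.1 FPKM and *Lyz2* 9.18 and 20.6 FPKM. The muscle genes *Ckm*, *Acta1* and *Tnnt3* and the fat gene *Cfd* had group means in TG that came almost wholly from TG 3, *Lpl* averaged 0.984 and 2.45 FPKM in CTR and TG, and the fat genes *Adipoq*, *Plin1* and *Cidec* were at 0 in all 4 CTR papillomas. *Tnnt3* and *Actn3* were also separated upward, with at most 0.590 and 0.224 FPKM outside TG 3, and reached the minimum for the test through TG 3. The part of these cells in the regulators' values was not tested.

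**Figure D3:**
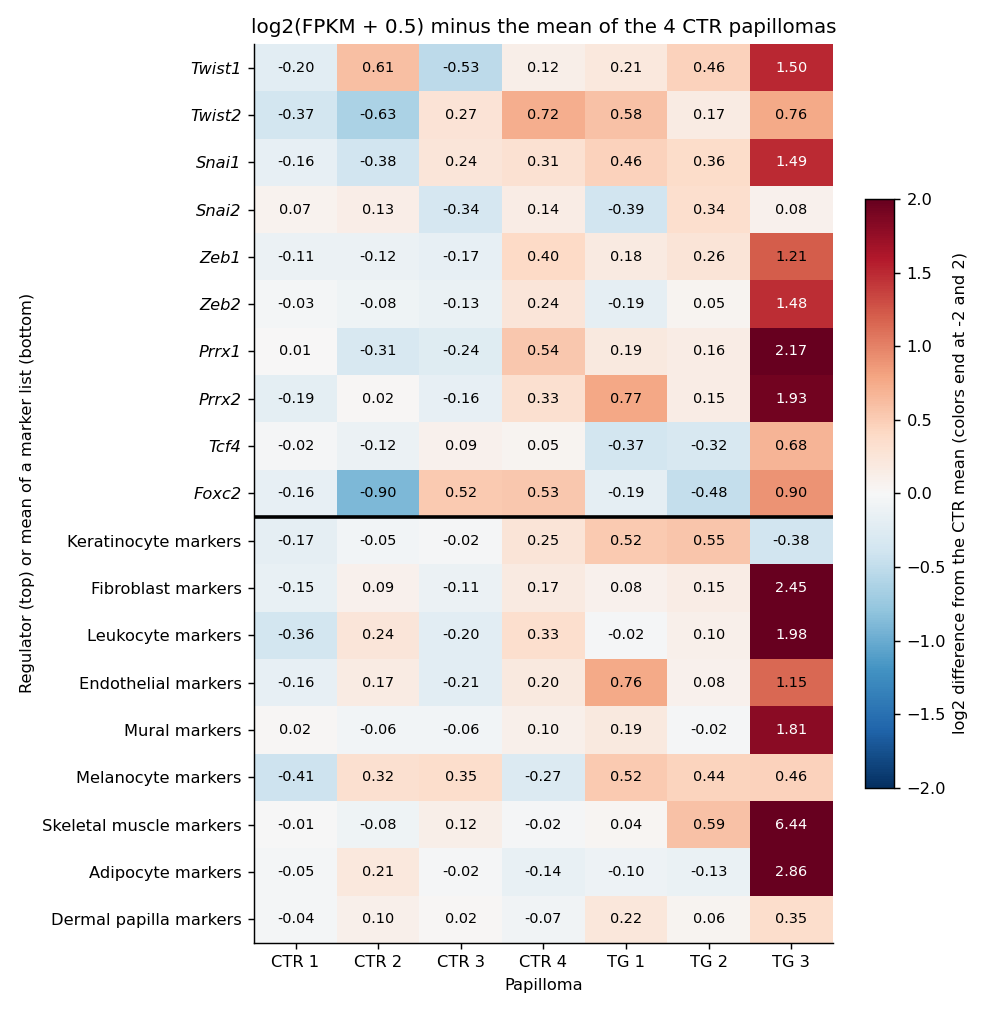
Each regulator (top rows) and the mean of each marker list (bottom rows) in each papilloma (columns), as log2(FPKM + 0.5) minus the mean of the 4 CTR papillomas. In TG 3, *Prrx1* is at 2.17 and *Prrx2* at 1.93, beside 2.45 for fibroblast, 1.98 for leukocyte and 6.44 for skeletal muscle markers, while *Snai2* is at 0.08 and keratinocyte markers are at -0.38.

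Outside TG 3, marker levels and regulators were less closely matched. Endothelial markers stood high in TG 1 as well, with a summed FPKM of 23.5 against 9.02 to 15.1 in CTR papillomas, 12.3 in TG 2 and 31.2 in TG 3. *Pecam1*, *Tek* and *Cldn5* were separated upward, as were 4.93% of tested genes, and the other abundant markers *Cdh5* and *Emcn* overlapped. *Pecam1* was at 3.32 ± 0.94 FPKM (SD, n = 4) in CTR and 6.60 ± 2.74 FPKM (SD, n = 3) in TG papillomas (log2 difference 0.86, and 0.56 without TG 3). *Tek* was below the minimum for the test, and *Cldn5*, at a CTR mean of 0.470 FPKM, reached it through TG papillomas. No share of separated markers is read from them. Mural markers had summed levels of 13.8 to 21.1 FPKM in CTR and 17.2 to 46.3 FPKM in TG papillomas, with *Notch3*, *Rgs5* and *Des* the most abundant. Melanocyte markers (*Tyr*, *Dct* and *Pmel* the most abundant) summed to 1.80 to 6.02 FPKM in CTR and 5.58 to 7.75 FPKM in TG papillomas, and dermal papilla markers (*Sox18*, *Lef1* and *Corin*) to at most 3.28 FPKM in CTR and 4.34 FPKM, in TG 1, in TG papillomas. *Sox18* alone made up most of these 2 dermal papilla sums, at 3.13 FPKM in CTR 2 and 4.07 FPKM in TG 1. No level of dermal papilla cells is read from them. Keratinocyte markers, led by *Krt14*, *Krt6a* and *Krt10*, summed to 12639 FPKM in TG 3 and to between 15322 and 25580 FPKM elsewhere, with *Krt10* at 181 FPKM in TG 3. That sum follows its few most abundant keratins and not every marker. TG 3 was highest for 3 of the 8, *Krt5* (1783 FPKM), *Dsg3* (257) and *Col17a1* (154), beside 41.1% of tested genes.

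In the regulators, 1 control resembled TG 3 in direction though not in size, a pattern picked out after the values were seen. CTR 4 had the highest value of the 4 controls for 8 of the 10 regulators, and 25.7% of tested genes had theirs there. For 6 of the 10 it also exceeded both TG 1 and TG 2, against 41.5% of tested genes. The median of the 10 regulators, as a log2 difference from the CTR mean, was 0.32 in CTR 4 and between -0.14 and -0.12 in the remaining controls, and it was 0.18, 0.16 and 1.34 in TG 1 to TG 3. Fibroblast markers summed to 145 FPKM in CTR 4, the most of any library but TG 3, and the part of these cells in the values of CTR 4 was not tested.

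Whether the regulators vary together from papilloma to papilloma was asked for all 45 pairs on the log2 scale. Since TG 3 lay far from the rest, r over 7 papillomas mostly describes that library, and the 6 others are given first. Over these 6, the median Pearson r was 0.31, 29 of 45 pairs were positive, and 0 passed an adjusted p of 0.05. The closest pairs were *Twist2* with *Snai1* and *Zeb1* with *Prrx1*, and neither holds paralogs. *Zeb1* and *Prrx1* had r = 0.92 and rho = 0.89 (exact permutation p = 0.00972 and p = 0.0333, adjusted p = 0.312 for r), and r was 0.90 after the 2 papillomas farthest from the median of *Zeb1* were left out of the 7. *Twist2* and *Snai1* had r = 0.92 and rho = 0.71 (exact permutation p = 0.0139 and p = 0.136, adjusted p = 0.312 for r), and r was 0.57 in the same way. *Twist1* ran opposite to *Foxc2* (r = -0.77, rho = -0.83, exact permutation p = 0.0694 and p = 0.0583, adjusted p = 0.551 for r) and to its partner *Tcf4* (r = -0.64). Of the paralogs, *Zeb1* and *Zeb2* had r = 0.66, *Prrx1* and *Prrx2* 0.57, *Twist1* and *Twist2* -0.22, and *Snai1* and *Snai2* -0.30, and the exact permutation p of these 4 was between 0.150 and 0.667. The *Snai2* and *Tcf4* rows held most of the negative values.

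With TG 3 included, the median r was 0.68 and 41 of 45 pairs were positive, again with 0 passing an adjusted p of 0.05. With the 2 papillomas farthest from the median of a pair's first gene left out, the median r was -0.01. That step narrows the range of the gene and leaves 5 papillomas, so r can fall by it alone, and no conclusion is drawn. Leaving out only TG 3 gave the median of 0.31 stated above. *Zeb1* and *Prrx1* again led over the 7 papillomas, with r = 0.98.

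**Figure D4:**
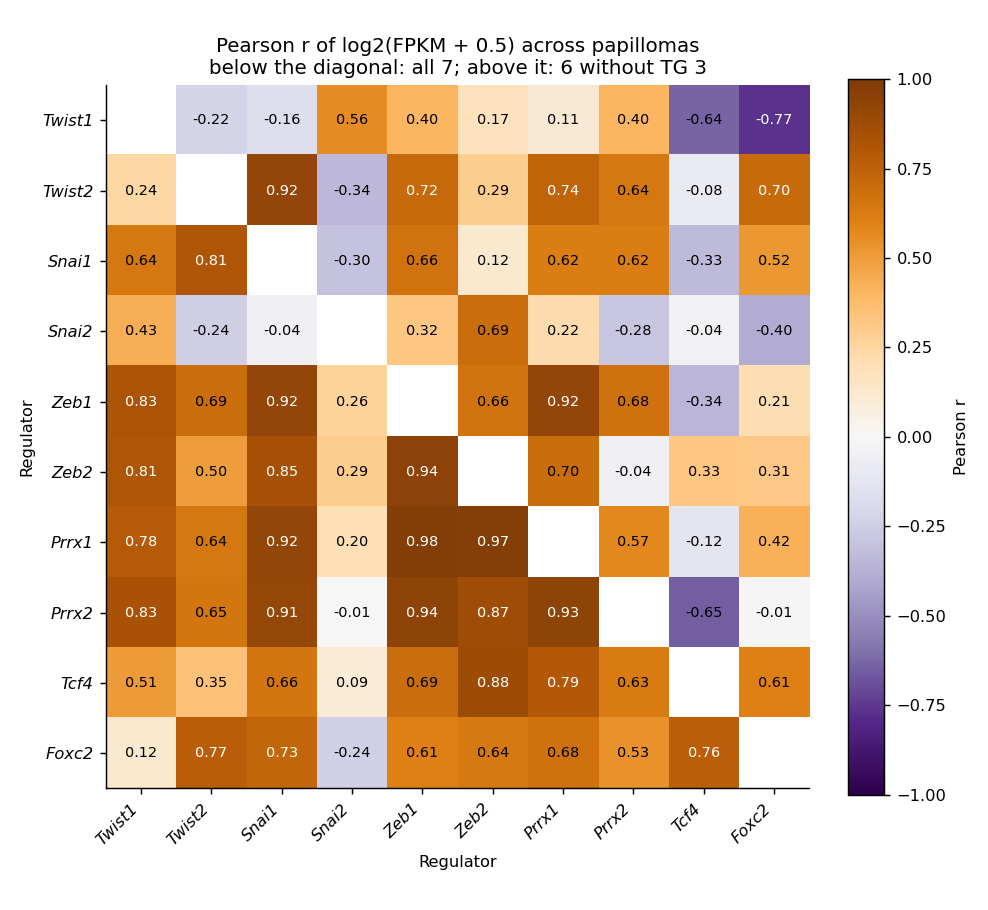
Pearson r of log2(FPKM + 0.5) for each pair of regulators (rows and columns), over all 7 papillomas below the diagonal and over the 6 without TG 3 above it. Below the diagonal 41 of the 45 values are positive, and above it 29 are, with *Twist1* and *Foxc2* at -0.77 and *Zeb1* and *Prrx1* at 0.92.

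Each regulator was also correlated with the mean of each marker list. Over 6 papillomas, the median r of the 10 regulators was 0.47 with fibroblast, 0.40 with leukocyte, 0.40 with endothelial, 0.51 with keratinocyte and -0.19 with melanocyte markers, and 0 of the 50 relations passed an adjusted p of 0.05. *Prrx2* with endothelial markers (r = 0.96, exact permutation p = 0.00833, adjusted p = 0.417) and *Zeb1* with fibroblast markers (r = 0.82, exact permutation p = 0.0472, adjusted p = 0.617) came closest. *Tcf4* had r = -0.47 with fibroblast and -0.71 with endothelial markers. Over 7 papillomas the medians were 0.87, 0.86, 0.76, -0.26 and 0.19 in the same order of lists. With TG 3 thus included, the relations that passed were *Zeb1* with fibroblast markers (r = 0.93) and *Prrx2* with endothelial markers (r = 0.96). Each had an adjusted p of 0.0496 (exact permutation test).

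For each member with enough expression, the 3 genes most like it over the 7 papillomas were listed by Pearson r among the 12299 tested genes. *Prrx1* was nearest to *Iqsec1* (r = 0.99), *Klra2* and *Kremen1*, and *Prrx2* to *Fxyd6* (r = 0.99), *Man1c1* and *Tmco3*. *Zeb1* was nearest to *Ptprj*, *Add1* and *Adcy7*, and *Snai1* to *Tenc1*, *Rara* and *Tpcn1*. *Twist1* went with *Arhgap18* (r = 0.98), *Fam118a* and *Laptm5*, the last of which is in the leukocyte marker list. *Twist2* went with *Akr1b8* (r = 0.95), *Rapgef1* and *Itpr3*, *Snai2* with *Kazn* (r = 0.97), *Wdfy1* and *4930403N07Rik*, *Tcf4* with *Top3b*, *Sh3d19* and *Exd2*, and *Foxc2* with *Ift122*, *Dgkd* and *Ints1*. No regulator was among the 3 nearest genes of another. The nearest genes were picked as the best of 12299 over 7 papillomas, and no p is attached to their r.

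Genes that mark the mesenchymal and epithelial states, and other inputs to EMT, were taken from lists of textbook members. Among 20 mesenchymal effectors, 18 were tested, 0 passed an adjusted p of 0.05 in limma, 5 had an unadjusted p under 0.05 upward and 0 downward (4.86% and 1.96% of all tested genes), and the median log2 difference was 0.61 (0.30 without TG 3, over 17 genes). *Wnt5a*, a secreted ligand, and *Vim*, the mesenchymal filament vimentin, were the 2 whose groups were separated, upward like 4.93% of tested genes. *Wnt5a* had 2.68 to 4.97 FPKM in CTR papillomas and 11.2, 12.1 and 5.65 FPKM in TG 1 to TG 3, its lowest TG value thus being in TG 3, and its log2 difference was 1.31 with and 1.64 without TG 3. *Vim* had 26.5 ± 7.97 FPKM (SD, n = 4) in CTR and 53.8 ± 25.7 FPKM (SD, n = 3) in TG papillomas, a log2 difference of 0.96 that was 0.60 without TG 3. The most abundant effectors, *Sparc*, *Cd44* and *S100a4*, had log2 differences of 0.60, 0.31 and 0.15 and overlapped between the groups, and without TG 3 these were 0.14, 0.08 and 0.30. TG 3 was highest for 17 of the 20, and 41.1% of tested genes were highest there. *Lox*, at a CTR mean of 0.399 FPKM and 3.78 FPKM in TG 3, reached the minimum for the test through TG 3.

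Epithelial genes had values on both sides of 0. Of 20 epithelial targets and keepers, 19 were found by symbol and 18 were tested, 0 passed an adjusted p of 0.05 in limma, 2 had an unadjusted p under 0.05 upward and 1 downward (against the same 4.86% and 1.96%), and the median log2 difference was 0.12 (0.01 without TG 3). *Cldn1*, a tight junction claudin, was separated upward, at 15.3 ± 4.95 FPKM (SD, n = 4) in CTR and 38.8 ± 13.3 FPKM (SD, n = 3) in TG papillomas (log2 difference 1.31, adjusted p = 0.563 from limma, and 1.12 without TG 3). *Ocln*, another tight junction gene with the CACCTG word before its start, was the 1 downward, with 12.1 to 16.4 FPKM in CTR and 4.34, 7.82 and 12.5 FPKM in TG papillomas (log2 difference -0.76, and -1.10 without TG 3). *Cdh1* had 73.8 to 109 FPKM in CTR and 67.2 to 122 FPKM in TG papillomas, with a log2 difference of 0.00 that was -0.21 without TG 3. The desmosomal genes *Dsp*, *Pkp3* and *Jup*, the most abundant of the list, had log2 differences of 0.32, -0.02 and 0.30, and of 0.25, 0.02 and 0.36 without TG 3. *Epcam* and *Cldn4*, whose promoters are printed above, averaged 30.4 and 21.9 FPKM in CTR and 36.3 and 28.9 FPKM in TG papillomas, with overlapping groups. The log2 difference of *Epcam* was 0.21 and turned to -0.04 without TG 3, and that of *Cldn4* was 0.42 and 0.33.

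Among 15 other EMT regulators, 12 were tested, with 0 at an adjusted p under 0.05 in limma, 0 upward and 2 downward at an unadjusted p under 0.05 (4.86% and 1.96% of all tested genes), and a median log2 difference of -0.06 (-0.14 without TG 3). The 3 that were separated between the groups, *Klf8*, *Id1* and *Id2*, were lower in TG, as were 2.23% of tested genes, and the log2 difference of *Klf8* was -0.48 without TG 3. *Id1* and *Id2* encode proteins that bind E proteins such as that of *Tcf4* and keep them from DNA. *Id1* had 99.5 ± 15.4 FPKM (SD, n = 4) in CTR and 71.8 ± 11.4 FPKM (SD, n = 3) in TG papillomas, with a log2 difference of -0.47 that stayed at -0.34 without TG 3. *Id2* had 14.8 ± 7.36 and 8.05 ± 1.66 FPKM (SD, n = 4 and 3), and its log2 difference was -0.76 (limma's adjusted p = 0.719), and -0.85 without TG 3. The third ID gene, *Id3*, and *Hmga2*, the other abundant genes of the list, overlapped at -0.25 and 0.79, and at -0.12 and 0.33 without TG 3. *Foxc1*, the paralog of *Foxc2* and singled out after its values were seen, had 4.37 to 5.41 FPKM in CTR papillomas, 1.57 and 1.64 FPKM in TG 1 and TG 2, and 6.94 FPKM in TG 3, an arrangement also seen in *Tcf4*. Of 10 genes of the TGF-beta input, which induces most EMT factors, 10 were tested and 0 had an unadjusted or adjusted p under 0.05 in limma, with a median log2 difference of 0.18 (-0.02 without TG 3). *Tgfb1*, *Tgfbr2* and *Ski*, the most abundant, had log2 differences of 0.19, 0.36 and 0.16, and without TG 3 of -0.02, 0.10 and -0.02.

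**Figure D5:**
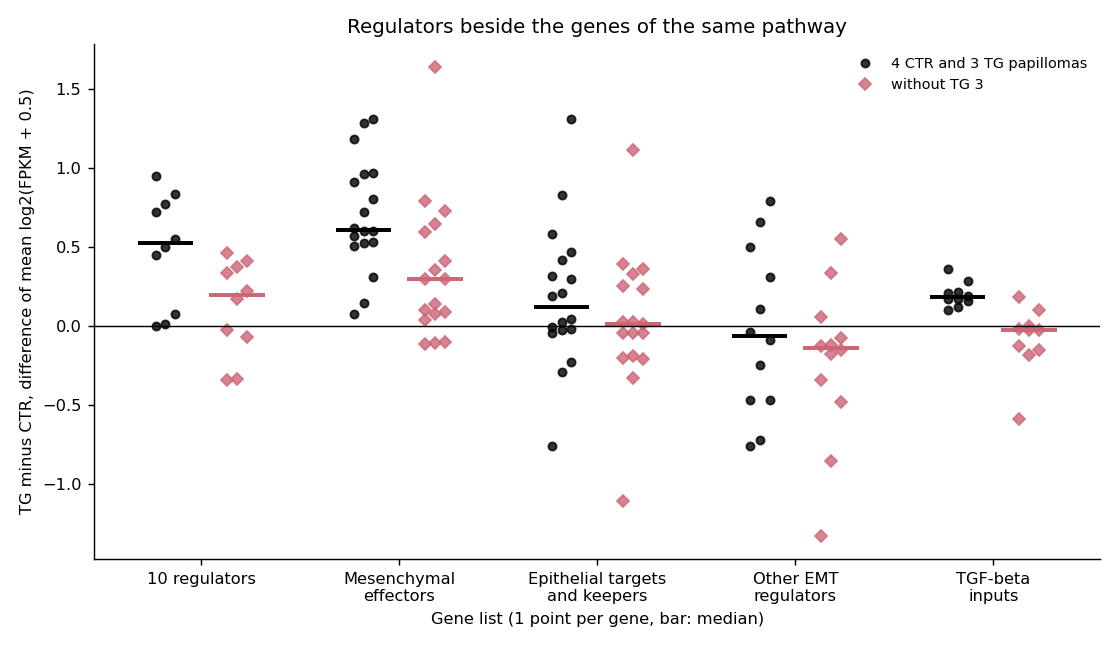
Difference between mean log2(FPKM + 0.5) in TG and CTR papillomas (y axis) for each gene of 5 lists (x axis), with all 7 papillomas in black and without TG 3 in red, and the median of each list as a bar. With all papillomas the medians are 0.53 for the regulators, 0.61 for mesenchymal effectors, 0.12 for epithelial genes, -0.06 for other EMT regulators and 0.18 for TGF-beta inputs, and without TG 3 they lie between -0.14 and 0.30.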

How the data were processed

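RNA from papillomas of 4 CTR and 3 TG mice was sequenced, with 1 library per mouse. The authors used Cufflinks 1.3.0 to estimate abundances per library from 40-base single reads of stranded libraries, mapped by TopHat 2.0.4 (on Bowtie 0.12.7, with SAMtools 0.1.16) to the genome build GRCm38/mm10, as in the submitters' processing notes. They deposited FPKM values (fragments scaled to transcript length and library size), each with an interval and a status flag. No read numbers were given, so depth was inferred from the intervals, which cover counting error of 1 library only. Entries of a symbol were summed (240 symbols), and 162 symbols with a failed estimate were left out. Groups were compared with limma 3.58.1 in R 4.3.3 on log2(FPKM + 0.5), for 12299 genes averaging at least 0.5 FPKM, with Benjamini-Hochberg adjustment over all of them, and single genes by an exact permutation test over 35 splits. A difference on this scale understates changes of low genes. The regulators, gene lists and alternatives were chosen with earlier results of these data known. Named genes were the 10 members, the separated genes and the 3 most abundant genes of each marker or pathway list, the 3 genes most like each member, and *Nanog*. 1 marker list is not reported here. Pearson and Spearman correlations used scipy 1.17.1 with exact permutation p-values. Alternatives were other pseudocounts, filters, scalings, sample weights, a replicate block, other handling of entries, and leaving out each papilloma. Promoters came from RefSeq and overlaps from GENCODE.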

Additional observations from a re-analysis of the deposited data

Results flagged for a closer look

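In the 4 CTR papillomas, 10 groups of values (1 per regulator) were examined for a sample far from the others, by the share of the group's range that lies between the end value and its neighbour. Chance alone marks about 1 in 20 such groups. 2 passed Dixon's 95% limit for 4 samples. *Zeb1* in CTR 4, at 0.729 FPKM, lay above the other controls (0.327 to 0.359 FPKM) by 0.919 of the range, and *Snai2* in CTR 3, at 9.11 FPKM, lay below the others (at least 12.3 FPKM) by 0.8294 of it. Without CTR 4 the log2 difference of *Zeb1* between TG and CTR was 0.69, against 0.55 with all papillomas, and without CTR 3 that of *Snai2* was -0.10, against 0.01.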

How the results depend on the processing

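The log2 differences of *Twist1*, *Twist2*, *Snai1*, *Zeb1*, *Prrx1* and *Prrx2* stayed above 0, and no member passed an adjusted p of 0.05, under every one of the 17 alternatives in which it was tested. With sample quality weights, in which TG 3 had a weight of 0.272, limma called 49 genes higher and 36 lower in TG (adjusted p under 0.05), and the differences were 0.0142 for *Twist2*, 0.17 for *Prrx1*, 0.30 for *Prrx2* and 0.22 for the median of the 9 tested members. Leaving out 1 papilloma at a time gave between 0 and 9 genes higher and between 0 and 8 lower. 9 and 8 were reached without TG 3, 2 higher genes without TG 1 and 1 without CTR 3. The member differences near 0 changed sign. *Snai2* was -0.0152 with upper-quartile scaling, -0.0494 with quantile normalization and between -0.15 and 0.21 when 1 papilloma was left out. *Tcf4* was 0.00567 with a pseudocount of 1, 0.0131 with the replicate block, and between -0.34 and 0.18 when 1 papilloma was left out. *Foxc2* was -0.10 with quantile normalization, -0.59 with quality weights and between -0.33 and 0.36 when 1 papilloma was left out, and *Zeb2* between -0.0682 and 0.76. The causes were not tested. The median difference of the members, 0.53, was 0.0112 with a minimum of 2 FPKM, where 3 members remained, and between 0.20 and 0.75 when 1 papilloma was left out. Without TG 3, the median r between members was 0.31 and that with fibroblast markers 0.47. Same-numbered TG and CTR papillomas did not deviate together (r between -0.19 and 0.04 over 3 pairs), and those with different numbers had r between -0.22 and 0.31. So few pairs cannot show whether the numbers pair mice. A fit with the replicate number as the block called 0 genes.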
